A study of Carya illinoinensis with 18 samples.

Results

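The genes described here were chosen as higher in pecan leaves after 6 d without water than before the treatment and after 15 d. They are the 200 members of a module taken from the 31074 genes of an expression table. Members were chosen by their values at 0 d, 6 d and 15 d on the scale log2(FPKM + 1), where FPKM stands for fragments scaled by the length of the transcript and by the mapped fragments of the library. A gene was eligible with a mean below 1000 FPKM and a highest value above 0.1 FPKM at 0 d, a mean log2 level that was higher at 6 d than at 0 d, and a difference between 15 d and 0 d of less than 50% of that rise. Eligible genes (7738) were ranked by the gap between their lowest library at 6 d and their highest library at 0 d or 15 d. This gap was positive in 2571 genes, and the first 200 were taken. The levels at 0 d, 6 d and 15 d are therefore a description and carry no test, whereas the libraries of 3 d, 9 d and 12 d played no part in the choice.

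Leaves that lose water close their stomata and accumulate abscisic acid, a hormone that switches on many stress genes. Some drought-responsive transcripts rise early and fall again while the stress goes on, and others build up as the tissue dries and photosynthesis and growth genes are turned down. A transcript level measured in leaf RNA reflects both synthesis and decay, so a brief maximum can be seen only in a series of time points.

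The plants were seedlings of the cultivar Pawnee, budded onto rootstocks grown from Pawnee seed and kept well watered before they were left without water for 15 d in a growth chamber. Leaves were sampled before the treatment (0 d) and then every 3 d until 15 d, with 3 libraries a day and 18 in all, each from leaves of at least 3 plants. The untreated leaves of 0 d are the control of the drought treatment, and the 18 libraries include no watered seedlings of later days. Days of drought and days in the chamber therefore cannot be told apart. The identifiers of the table matched 0 of the genes in the RefSeq table of pecan. The members therefore carry no gene names or functions here, the leaf identity of the libraries could not be checked against marker genes, and most members are given by their rank in the module.

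Summed FPKM ranged from 545598 to 587063 over the libraries, and the deepest library had 1.38 times the depth of the shallowest, as estimated from the steps between low values. The libraries of 9 d and 12 d stood apart from one another. Along the change from 0 d to 15 d of the 24242 other genes, set to 0% at the 0 d mean and 100% at the 15 d mean, the libraries of 6 d lay at 24.7%, 35.9% and 37.4%. Those of 9 d lay at 76.8%, 33.5% and 41.7%, and those of 12 d at 71.4%, 29.8% and 85.7%, for replicates 1, 2 and 3. A day label at 9 d or 12 d thus covered leaves at different positions along this change, and the part of this spread in the results below was not tested.

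The median member had a mean of 3.06 FPKM in untreated leaves and 4.80 FPKM after 3 d. It then stood at 17.7 FPKM at 6 d, 13.4 and 10.8 FPKM on the next 2 sampling days and 2.89 FPKM at the end. The members spanned a wide range of abundance, from 1.75 to 777 FPKM at 6 d with quartiles of 6.96 and 47.9. In a leaf sample, more cells that express a gene and more RNA per cell cannot be told apart. The rise from 0 d to 6 d on the log2 scale was 0.95 in the lowest member, 2.05 in the median and 6.32 in the highest. In the 139 members with at least 1 FPKM at 0 d, the median ratio of 6 d to 0 d was 4.76 and the highest 89.1. The other 61 members had a mean under 1 FPKM at 0 d, where the log2 scale with a pseudocount of 1 understates the change, and 19 members were listed at 0 in at least 1 library of 0 d.

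**Figure D1:**
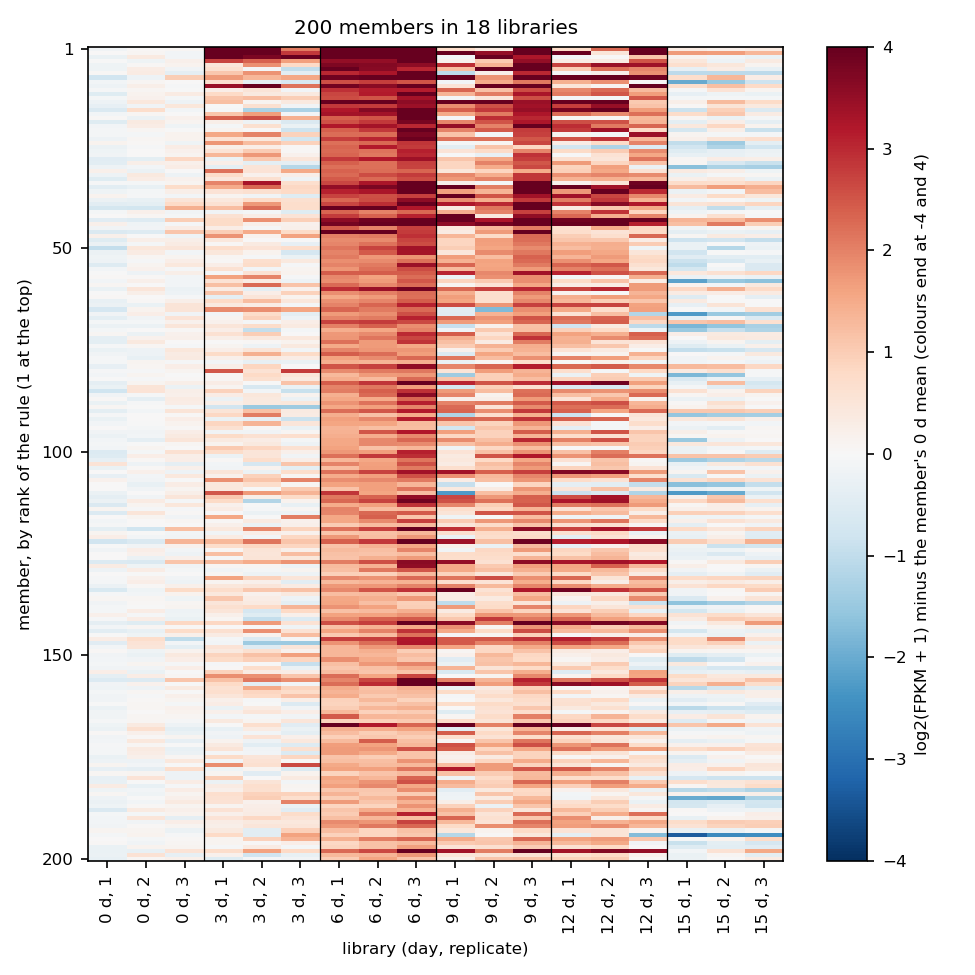
The 200 members (rows, by rank) in the 18 libraries (columns, by day), with the colour giving log2(FPKM + 1) minus the member's 0 d mean. The 6 d columns are raised in every row by the choice of members, the 3 d columns are mostly near 0, and the 9 d and 12 d columns differ from one library to the next.

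The rule chose members for high levels at 6 d, so a maximum on this day was favoured by the choice. By mean log2 level, 175 members were highest at 6 d. A further 14 were highest at 9 d and 10 at 12 d, and 1 was highest at 3 d. Scaling the libraries by median ratios left 166 members highest at 6 d, quantile normalization left 167 and a pseudocount of 0.1 gave 176. With the median of each day in place of its mean, 148 were highest at 6 d. The best ranked member that was highest at 9 d was that of rank 37, with 12.3 ± 0.753 FPKM at 6 d (SD, n = 3) and 22.0 ± 11.9 FPKM at 9 d. Its libraries of these 2 days overlapped. For the members highest at 12 d the best ranked was rank 35, with 40.8 ± 13.1 FPKM at 6 d (SD, n = 3) and 49.6 ± 19.4 FPKM at 12 d, which overlapped too. The single member highest at 3 d, rank 177, had 3.10 ± 2.54 FPKM at 3 d (SD, n = 3) against 1.75 ± 0.272 FPKM at 6 d, which also overlapped.

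In the median member most of the rise took place between 3 d and 6 d, and most of the fall between 12 d and 15 d. The choice of members by high values at 6 d and low values at 15 d favoured both steps. Single members differed, as 40 had reached at least 50% of the rise by 3 d and 113 still had it at 12 d. At 3 d the median member had reached 16.2% of its 6 d rise, with quartiles of 3.01% and 39.4%, and 44 members lay below their 0 d mean. At 9 d the median member still had 67.9% of the rise and at 12 d 57.1%. At 15 d the median was -0.98%, where the rule fixed that no member had 50% or more.

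The members fell into classes by when they had at least 50% of the 6 d rise. The largest class, 111 members, had it at both 9 d and 12 d. A further 39 had it at 9 d and not at 12 d, 2 had it at 12 d and not at 9 d, and 48 had it on neither day. Of these 48 narrow members, 19 had already reached 50% at 3 d, so their day means rose early and were under 50% of the rise at 9 d. The classes rest on day means, and single libraries could stay high. The member of rank 1, one of the 19, had 78.11 FPKM in 9 d replicate 3 against 0.82 and 0.43 in the other libraries of 9 d.

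**Figure D2:**
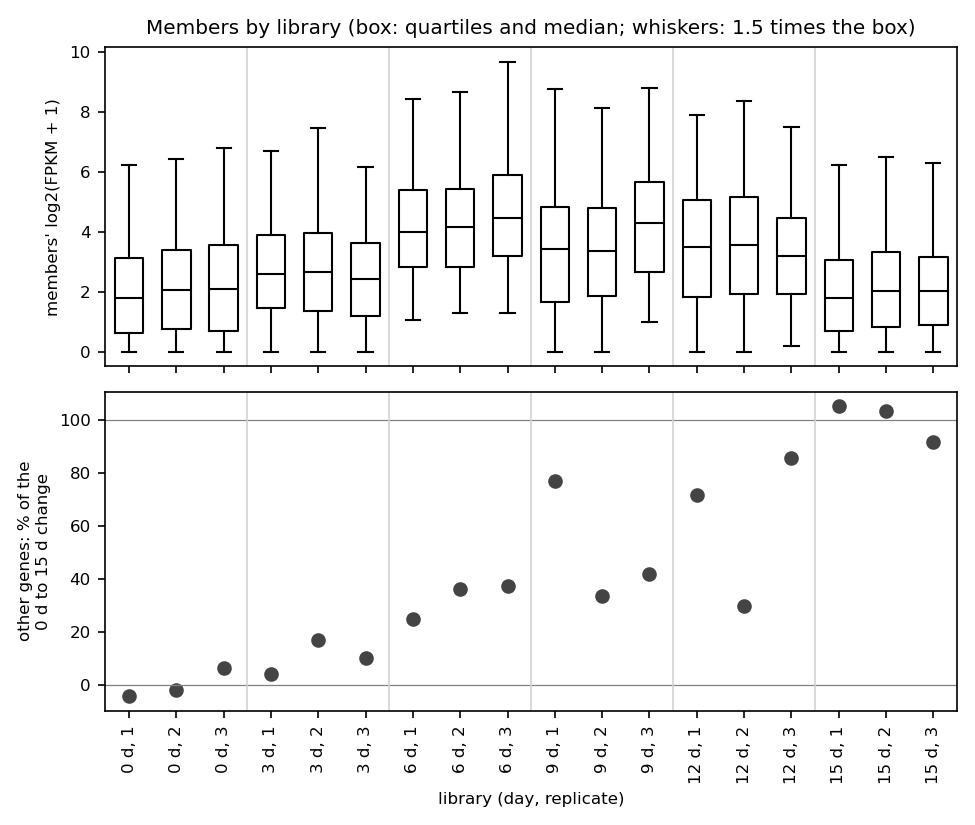
Top, log2(FPKM + 1) of the 200 members in each of the 18 libraries, with boxes from quartile to quartile, a line at the median, whiskers to the last value within 1.5 box lengths and points beyond them not drawn. Bottom, the position of each library along the 0 d to 15 d change of the other genes, in percent. The members' median is 4.29 in 9 d replicate 3 against 3.41 and 3.35 in the other libraries of 9 d, and the position is 76.8% in 9 d replicate 1.

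Members varied more between libraries of a day than other genes did. The median SD on the log2 scale was 0.379 at 6 d, against 0.238 over all genes with a mean of at least 0.1 FPKM. It was 0.705 against 0.314 at 9 d and 0.517 against 0.346 at 12 d. At 0 d and 15 d, where the ranking favoured tight values, it was 0.233 against 0.183 and 0.216 against 0.171. The spread among members was thus widest at 9 d and 12 d, when the libraries also lay furthest apart along the change of the other genes. At 9 d the library that stood apart was not the same. It was replicate 1 in position, at 76.8%, and replicate 3 in the members' median, at 4.29 on the log2 scale. A link between the 2 spreads was not tested.

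Together the members took 0.205% to 0.294% of the FPKM sum of a library at 0 d and 0.322% to 0.419% at 3 d. The share was 1.25%, 1.34% and 1.99% at 6 d, 0.863%, 0.767% and 1.87% at 9 d, and 0.924%, 0.986% and 1.67% at 12 d, in the order of replicates 1 to 3. It was back at 0.219% to 0.270% at 15 d. The lowest library of 6 d, 9 d or 12 d still lay above each library of 0 d, 3 d and 15 d. The value of 12 d replicate 3 came largely from 1 gene, and was 0.611% without the member of rank 2.

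The member of rank 1, CIL0982S0130, had the widest gap of the module, 5.02 on the log2 scale. It was listed at 0.00, 0.13 and 0.16 FPKM at 0 d, had 26.75, 40.49 and 3.60 at 3 d, and stood at 49.32, 43.10 and 102.88 at 6 d. At 9 d it had 0.82, 0.43 and 78.11 FPKM, at 12 d 0.88, 4.43 and 40.23, and at 15 d 0.36, 0.27 and 0.36. On both late days replicate 3 was thus close to the 6 d level, whereas replicates 1 and 2 were nearer to the level of 15 d. Between 3 d and 12 d the groups overlapped, and the limma fit of 3 d, 9 d and 12 d gave log2 differences of -1.56 for 9 d against 3 d (adjusted p = 0.610) and -1.22 for 12 d against 3 d (adjusted p = 0.643).

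CIL1463S0029, the member of rank 2, was the most abundant of the module at 6 d. It had 8.75, 9.35 and 8.05 FPKM at 0 d, 217.96, 174.49 and 68.38 at 3 d, and 773.85, 744.77 and 812.49 at 6 d. Its 6 d libraries were the closest to one another of its later days before 15 d. It then spread to 433.36, 110.02 and 2353.57 FPKM at 9 d and 166.70, 12.62 and 5928.70 at 12 d, before 30.59, 30.05 and 23.17 at 15 d. Replicate 3 was again the highest of both late days, here above the 6 d level, and at 12 d replicate 2 was lower than each library of 15 d. Its mean was 777 FPKM at 6 d, 966 at 9 d and 2036 at 12 d. By mean FPKM this gene was thus highest at 12 d, and by mean log2 level at 6 d. The log2 difference between 12 d and 9 d was -1.02 (limma adjusted p = 1). With 1 library left out it ranged from -3.34, without 12 d replicate 3, to 1.04, without 12 d replicate 2. It was 0.12 without 9 d replicate 3.

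CIL0942S0178, of rank 3 and singled out after its values were seen, had an early course. It had 0.00, 0.53 and 0.12 FPKM at 0 d, 50.22, 15.19 and 20.48 at 3 d, and 43.18, 22.41 and 19.13 at 6 d. Its 3 d and 6 d libraries overlapped. At 9 d it had 0.12, 17.44 and 10.19 FPKM, at 12 d 0.11, 0.20 and 1.58, and at 15 d 0.32, 0.10 and 0.00. Unlike ranks 1 and 2 it was low in all libraries of 12 d.

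**Figure D3:**
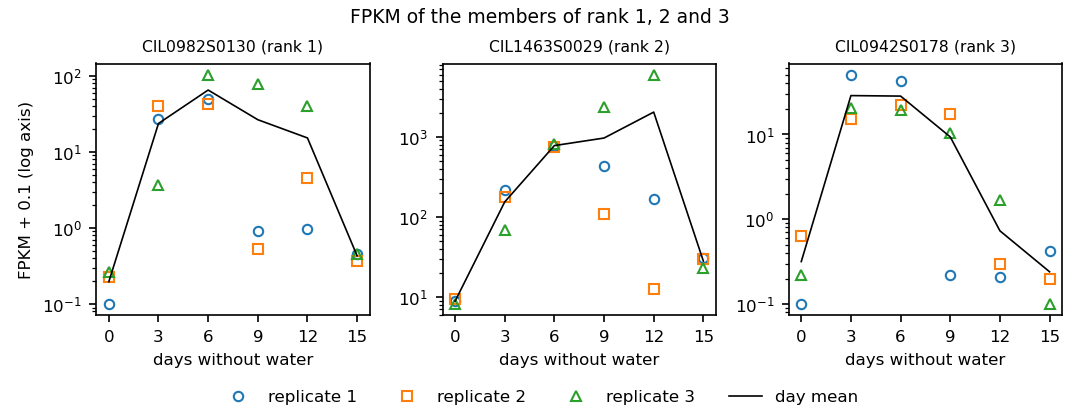
FPKM + 0.1 (log axis) of the members of rank 1, 2 and 3 in each library by day, with a line through the mean FPKM of each day. Ranks 1 and 2 are highest in replicate 3 at 9 d and 12 d (78.11 and 40.23 FPKM for rank 1), and rank 3 is low in all 3 libraries of 12 d.

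The next most abundant members at 6 d behaved more evenly. Rank 49 had 89.6 ± 18.4 FPKM at 0 d (SD, n = 3), 91.7 ± 21.6 at 3 d and 427 ± 100.1 at 6 d. Its means on the next 2 sampling days were 274 ± 109 and 218 ± 35.1 FPKM, before 79.5 ± 8.21 at 15 d. Rank 12 had 22.1 ± 6.26 FPKM at 0 d (SD, n = 3), 232 ± 107 at 6 d and 95.7 ± 26.7 at 12 d. Both had the course of the median member, with little change by 3 d and more than 50% of the rise kept at 12 d.

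In the middle of the ranking, the members of rank 99 to 101 had gaps of 1.07, 1.06 and 1.05 on the log2 scale. Their mean levels were 22.9 ± 3.77, 159 ± 99.4 and 17.1 ± 4.62 FPKM at 6 d (SD, n = 3) and 11.0 ± 4.88, 84.9 ± 37.4 and 10.9 ± 1.84 FPKM at 12 d. The gene after these had 59.0 ± 18.8 FPKM at 6 d (SD, n = 3) and 27.7 ± 10.5 at 12 d. All 4 had lower means at 12 d than at 6 d and higher ones than at 15 d, where they had 5.02 to 25.8 FPKM. At the end of the ranking the members differed little from the genes left out. The last member but one had a gap of 0.735 on the log2 scale, with 65.2 FPKM in its lowest library of 6 d and 38.8 in its highest of 0 d or 15 d. The last member had a gap of 0.730, with 103.9 against 62.3 FPKM. The first 2 genes outside had gaps of 0.729 and 0.728, with 15.8 against 9.16 FPKM and 9.73 against 5.48 FPKM.

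Whether members were higher late in the treatment than early was tested on the days that the choice did not use. The choice still favoured this direction, because it took genes raised at 6 d over 0 d. Along the change of the other genes the 3 d libraries lay near 0 d, at 4.1% to 17.0%. Those of 9 d and 12 d lay at 29.8% or more, beside 24.7% to 37.4% at 6 d. A larger share of calls in members than in all genes therefore cannot be told apart from the choice. The limma fit covered the 9 libraries of 3 d, 9 d and 12 d and 24398 genes, among them all 200 members, with calls at p values under 0.05 after Benjamini-Hochberg adjustment across all of them, two-sided. At 9 d, 29 members (14.5%) were called higher than at 3 d, where 1.94% of all genes tested were, and 0 were called lower, against 0.439% of all genes. At an unadjusted p under 0.05 limma had 51% of the members higher, beside 11.9% of all genes, and 1 member lower. The median log2 difference was 1.04 in members, with quartiles of 0.32 and 1.81, against -0.04 over all genes. It was positive in 159 members and negative in 41.

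The 29 members called had log2 differences of 1.22 to 3.76 and adjusted p values of 0.0116 to 0.0439 from limma. They ranked from 16 to 179, and all 29 were of the class that had at least 50% of the 6 d rise at both 9 d and 12 d. That class and the calls use the same libraries of 9 d, so this is not a separate result. The member of rank 44, picked after its values were seen, had 0.483 ± 0.353 FPKM at 3 d (SD, n = 3), 31.2 ± 17.7 at 6 d and 15.8 ± 3.99 at 9 d. Its log2 difference was 3.50 for 9 d against 3 d (standard error 0.45, limma adjusted p = 0.0116). These calls rested on few libraries. With 3 d replicate 3 or 9 d replicate 3 left out 0 members were called higher, beside 0.0533% and 0.0574% of all genes. Without 3 d replicate 1 there were 2 (0.16% of all genes), without 9 d replicate 1 there were 18 (1.01%) and without 12 d replicate 1 there were 19 (1.15%), so that calls became fewer over all genes too.

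Against the same libraries of 3 d, those of 12 d had 35 members (17.5%) called higher, beside 3.65% of all genes tested, and 1 member (0.5%) called lower, beside 1.5% of all genes. The median log2 difference was 0.78 in members and -0.13 over all genes, and 148 members had a positive value. The 35 had log2 differences of 1.02 to 4.03 and again had at least 50% of the 6 d rise at 9 d and 12 d. This share and the calls use the same libraries of 12 d. The member of rank 146, also picked after its values were seen, had 4.22 ± 0.970 FPKM at 3 d (SD, n = 3), 44.7 ± 8.23 at 6 d and 36.8 ± 15.3 at 12 d, a log2 difference of 2.78 (standard error 0.33, limma adjusted p = 0.00964). With 3 d replicate 3 or 12 d replicate 1 left out 0 members were called higher, beside 0.115% and 0.0533% of all genes. Without 3 d replicate 1 there were 5 (0.426% of all genes), and without 9 d replicate 3 there were 19 (1.48%).

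The 1 member called lower at 12 d than at 3 d was CIL0942S0178, with a log2 difference of -4.11 (standard error 0.97, limma adjusted p = 0.0495) and all libraries of 12 d below all of 3 d. The adjusted p ranged from 0.00188 to 0.195 over the alternatives tried, and the call was lost with a pseudocount of 0.1, with no filter on low values, after median-ratio scaling and with the replicate block (adjusted p = 0.0706). It was also lost without 3 d replicate 1, 3 d replicate 3, 9 d replicate 3 or any library of 12 d, and without replicate 3 of both 9 d and 12 d. At 9 d its 3 libraries overlapped those of 3 d (log2 difference -2.09, limma adjusted p = 0.263).

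Between 9 d and 12 d limma called 0 members lower and 0 higher, where 0% of all genes were called in either direction. At an unadjusted p under 0.05, 4 members (2%) were lower and 0 higher, against 0.553% and 0.242% of all genes. The median log2 difference was -0.18 in members and -0.08 over all genes, and 143 members (71.5%) had a negative value beside 64.1% of all genes. The median in members was 0.08 without 9 d replicate 3, so its sign rested on that library. The largest fall among the 4 members was that of rank 25, with 1.05, 5.07 and 3.92 FPKM at 9 d and 0.64, 0.18 and 0.87 at 12 d, and its groups did not overlap. Its log2 difference was -1.36 (standard error 0.41), with a limma adjusted p of 1.

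The same fit gave the values of 200 other genes raised at 6 d. They were taken by the same filters, except that at 15 d they kept at least 50% of the rise, and were ranked by the gap between their lowest 6 d and highest 0 d library. At 9 d, 100 of them (50%) were called higher than at 3 d, and at 12 d 135 (67.5%). Their median log2 difference was 2.90 at 9 d and 3.24 at 12 d, and between 9 d and 12 d it was 0.31, with a negative value in 50 genes (25%). The lists were separated by their values at 15 d and the difference between them was not tested.

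**Figure D4:**
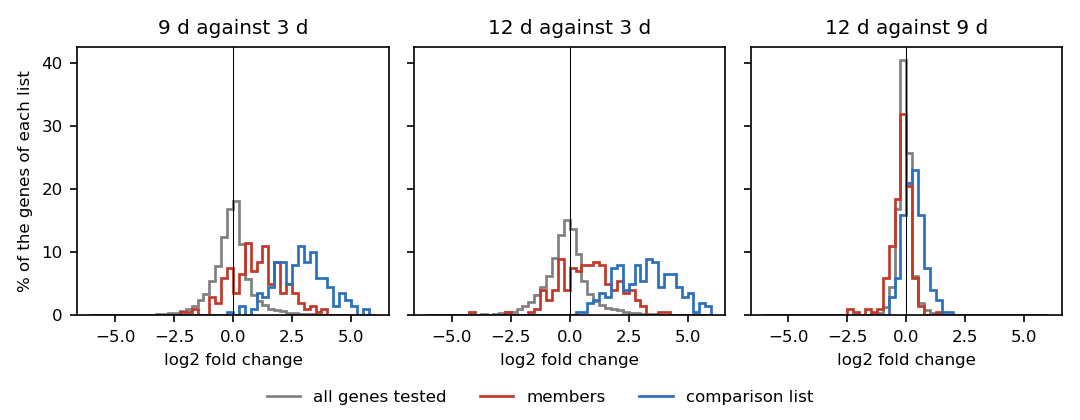
Distribution of the log2 fold change of log2(FPKM + 1) in the limma fit of 3 d, 9 d and 12 d, as the percentage of the genes of each list, for members, the comparison list and all genes tested. For 9 d against 3 d the members (median 1.04) lie between all genes (-0.04) and the comparison list (2.90), and for 12 d against 9 d they centre just below 0.

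Single libraries set much of the members' spread. In 153 members (76.5%) 9 d replicate 3 was the highest library of its day, as it was in 27.9% of all genes, and in 80 members it lay more than 1 on the log2 scale above the mean of the other libraries of 9 d, which 3.41% of all genes did. The members' mean log2 level was 4.32 in this library and 3.30 and 3.38 in the others of 9 d, close to the 4.15, 4.23 and 4.65 of 6 d. At 6 d, replicate 3 was the highest in 142 members (71.0%), beside 35.7% of all genes. The library of 12 d replicate 3 had members on both sides. It was more than 1 above the mean of the others in 26 members and more than 1 below it in 46, against 5.37% and 9.30% of all genes.

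Members could thus be set apart by their values in replicate 3, as a description made after these values were seen. In 22 members replicate 3 was more than 1 above the mean of the other libraries both at 9 d and at 12 d. Their median log2 level above 0 d was 0.14, 0.52 and 2.69 in the 3 libraries of 9 d and 0.15, 0.46 and 1.94 in those of 12 d. The higher values in replicate 3 on these late days were set by the split. At 3 d, which the split did not use, the median was 1.59, 1.82 and 0.95, so it was raised early. By then 14 of the 22 had reached at least 50% of the 6 d rise, as had 26 of the other 178. The 22 included the members of rank 1 and 2 and had a median rank of 26.5, against 107.5 in the other 178. The median share of the 6 d rise that they had reached at 3 d was 54.3%, against 13.0% in the others.

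The 46 members that were low in 12 d replicate 3 had another course. Their median level above 0 d was 0.26, 0.07 and -0.08 on the log2 scale in the libraries of 3 d, 1.93, 1.73 and 2.49 at 9 d and 2.16, 2.39 and 0.84 at 12 d. They were late to rise and stayed high at 9 d. At 12 d the split compared replicate 3 with replicates 1 and 2. It set the low value of the first and favoured the high values of the others. Over the other genes 12 d replicate 3 lay nearest to 15 d, at 85.7%. The libraries of 9 d replicate 1 and 12 d replicate 1, where these members stood at 1.93 and 2.16, lay at 76.8% and 71.4%. A link between position and these levels was not tested. The remaining 132 members had 0.92, 1.10 and 0.84 in the libraries of 12 d. These values lay close together, which the split favoured by taking out many members that differed in 12 d replicate 3.

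**Figure D5:**
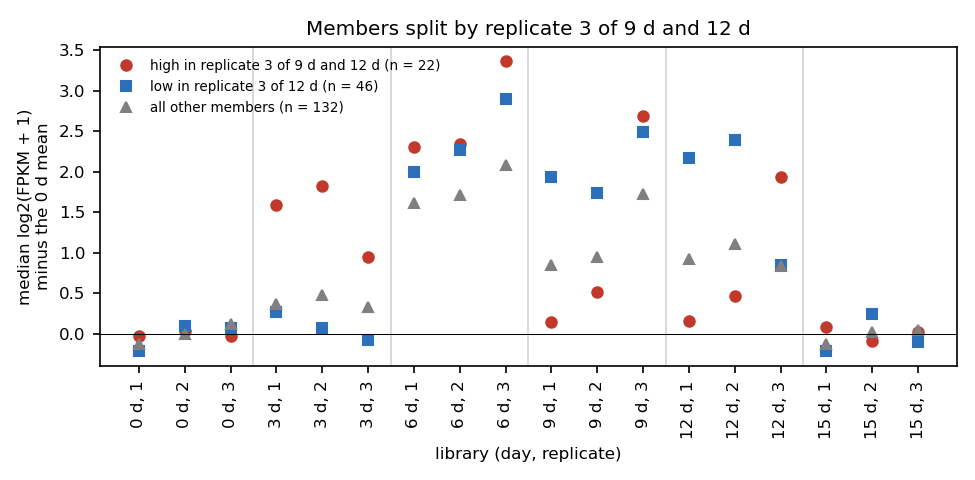
Median log2(FPKM + 1) minus the 0 d mean in each library, by day, for the 22 members high in replicate 3 at 9 d and 12 d, the 46 members low in 12 d replicate 3 and the other 132. By the way they were split off, the 22 are higher in 9 d replicate 3, at 2.69 against 0.14 and 0.52 in the other libraries of that day.

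The level of members at 15 d relative to 0 d depended on the scaling of the libraries. As deposited, 103 members were below their 0 d mean at 15 d and 97 above, with a median log2 difference of -0.02, while the median of all genes had shifted by -0.24. After median-ratio scaling, where the shift of all genes was -0.03, 69 members were below and 131 above, with a median of 0.20. Quantile normalization gave 61 below and 139 above, with a median of 0.31. Since the rule capped the level at 15 d, these values describe the choice of members. At 15 d, 11 members were listed at 0 in at least 1 library and 2 in all 3.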

How the data were processed

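RNA of 18 leaf libraries was sequenced on an Illumina NovaSeq. The submitters' processing notes name fastp 0.18.0, Bowtie2 2.2.8, HISAT2, StringTie 1.3.1 and RSEM, whereas the genome build and annotation are not given in the sources used here. The authors computed FPKM with RSEM, which divides shared reads among genes, so near-identical copies are uncertain, and deposited them with 2 decimals. Depth is known only between libraries, from the steps of low values (2966 genes).

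Members and lists were chosen with earlier results of these data known. FPKM was transformed as log2(FPKM + 1) without scaling. Genes with a mean of at least 0.1 FPKM over the 9 libraries of 3 d, 9 d and 12 d were fitted with limma 3.58.1 (R 4.3.3, eBayes with trend, Benjamini-Hochberg adjustment), which was tested on simulated data. With 3 libraries a day, 0.1 is the lowest p of an exact permutation test. The rule for named genes took ranks 1 and 2 and up to 2 members called lower at 12 d than at 9 d, of which there were 0. It also chose ranks 12, 35, 37, 49 and 177, the middle of the ranking and the genes at the edge of the module. Alternatives changed the pseudocount, filter, scaling, samples fitted, weights, threshold and replicate block. Python 3.11.15, numpy 2.4.6 and pandas 2.3.3 were used, and 0 columns were left out.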

Additional observations from a re-analysis of the deposited data

How the results depend on the processing

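Counts of called members changed with the filter, the libraries fitted and the weights. The counts as reported were 29 higher at 9 d than at 3 d, 35 higher and 1 lower at 12 d than at 3 d, and 0 between 9 d and 12 d. With no filter they were 7, 11 and 0 (0.772%, 1.53% and 0.489% of all genes), and 0 were lower at 12 d than at 3 d with a pseudocount of 0.1 or after median-ratio scaling too. With all 18 libraries in the fit they were 91 higher at 9 d, and 81 higher and 8 lower at 12 d, beside 8.91%, 12.8% and 12.9% of all genes. Array weights, which ranged from 0.364 to 3.83 over the libraries, gave 101 higher at 9 d, 90 higher and 12 lower at 12 d, beside 9.36%, 18.2% and 25.1% of all genes, and 0 between 9 d and 12 d. They were estimated gene by gene, a method chosen after seeing that limma's default estimate did not converge. The default put a weight of 52.7 on 12 d replicate 1 and called 51% of members and 29.4% of all genes lower at 12 d than at 9 d. Without replicate 3 of both 9 d and 12 d, a setting chosen after seeing the data, the counts were 0, 14 and 0, beside 0.0287%, 0.303% and 0.0287% of all genes. Quantile normalization and a log2 fold change of at least 1 left these counts within 1.5 times or at 0, as did a filter at 1 FPKM.

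With one library left out, 0 to 41 members were higher at 9 d than at 3 d, 0 to 49 higher and 0 to 3 lower at 12 d than at 3 d, and 0 were called between 9 d and 12 d. The rule itself shared 97 to 195 members with the module when applied without one library, the fewest without 6 d replicate 3. It shared 168 after median-ratio scaling, 151 after quantile normalization and 175 with a pseudocount of 0.1. With the replicate block, 17 members were higher at 9 d, and 19 higher and 0 lower at 12 d, beside 1.54%, 2.88% and 0.984% of all genes. Whether the replicate numbers pair the samples was not settled. The deviations of same-numbered libraries of 3 d, 9 d and 12 d correlated at -0.254 to 0.587 (median -0.05), with 2 of 9 pairs over 0.1. In members, the difference of replicate 3 from the other libraries of its day correlated at 0.519 between 9 d and 12 d. In the other genes this was -0.229. The cause of the changes between settings was not tested.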

Other observations

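Identifiers of members began with CIL, except that of rank 155, which began with MSTRG. The sources do not state what the numbers in the identifiers stand for. The CIL identifiers of members fell under 152 first numbers, with at most 5 members under one of them. In 16 members the last number was next to that of another member, which made 10 pairs. Over the 18 libraries, which share their days and are therefore not independent, log2(FPKM + 1) correlated within these pairs at 0.593 to 0.983, the highest in ranks 39 and 43 and the lowest in ranks 1 and 53. Whether the genes of a pair share reads was not tested. Among the 255 neighbouring identifiers outside the module, 9.41% met the rule with a positive gap, beside 8.18% of the neighbours of other genes.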
